A study of Homo sapiens with 12 samples.

Results

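The 41 genes described here were counted in SKOV3/DDP cells and had 0 counts in SKOV3 cells. They are protein-coding genes with 0 counts in all 6 SKOV3 libraries (3 untreated, 3 treated with paeonol) and a CPM of at least 10 (CPM is the count scaled by the library's total on named genes, times 1e6) in each of the 3 untreated SKOV3/DDP libraries. Of 8739 protein-coding genes that reached 10 CPM in each SKOV3/DDP library, 47 met this rule. 6 of these (BMP4, MT1E, STK11, EPS8L3, COL4A2 and ALPI) were left out by name, which left 41, or 0.469% of the 8739. As the members were chosen by their counts in these 9 libraries, their difference between the 2 lines is a description and was not tested. The converse rule, 0 counts in all 6 libraries of SKOV3/DDP with and without paeonol and at least 10 CPM in each untreated SKOV3 library, was met by 55 genes, of which 32 also reached 10 CPM in each paeonol-treated SKOV3 library.

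SKOV3 is a human epithelial ovarian cancer line that the labels call cisplatin-sensitive, and SKOV3/DDP, which was obtained from it, is the cisplatin-resistant counterpart. Each line was sequenced untreated and after paeonol (PAE), a phenolic compound of peony root, with 3 libraries in each of the 4 groups (SKOV3, SKOV3_PAE, SKOV3/DDP and SKOV3/DDP_PAE). The sample labels give neither a dose nor a duration of PAE. The deposited columns carry the tag 1.5P in SKOV3_PAE and 2.4P in SKOV3/DDP_PAE, with no unit, so the 2 lines may not have had the same treatment. Each group is 1 line, so a difference between the lines cannot be told apart from a difference between 2 cultures. The series describes its samples as biological triplicates without naming separate cultures, so p-values measure the spread between these libraries.

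Many genes are used in a few tissues only and give no RNA elsewhere, and others, the housekeeping genes, are used in nearly all. Promoters rich in CpG dinucleotides are typical of the second kind, and CpG-poor promoters of the first. Genes for KRAB zinc finger proteins, DNA-binding repressors that mostly act on repeated elements, lie in large clusters on chromosome 19, where many close copies sit side by side.

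Libraries held between 14572701 and 18240553 counts on named genes, so 1 count was between 0.0548 and 0.0686 CPM, and 3 counts over the 3 untreated SKOV3 libraries together came to 0.0566 CPM. Against that limit, and in CPM without TMM scaling, the mean level in SKOV3/DDP was 204-fold higher for KCNJ8, the least abundant of the 41. It was 5404-fold higher for MAGED1, the most abundant. With the TMM factors used for the PAE test (0.644 to 0.674 in SKOV3, 0.975 to 1.10 in SKOV3/DDP) these folds would be smaller. The untreated SKOV3 libraries stood apart from the other 9. They had fewer named genes with a count (17951 to 18240, against 21469 to 23194). Deviations of 11210 genes from their mean over all 12 libraries rose with GC content there (Spearman 0.745 to 0.773). In the other 9 libraries they fell with it (-0.622 to -0.393). That mean includes the untreated SKOV3 libraries, so these signs are relative and give no trend of the levels themselves. The zeros in the SKOV3_PAE libraries, where deviations did not rise with GC content, were set by the rule and are no separate check. With 0 counts asked of the untreated SKOV3 libraries only, 84 genes met it. Median GC content was 45.9% for the 40 genes with a value and 47.8% for protein-coding genes at 10 CPM or more in SKOV3/DDP. Summed over 11 ovarian and Mullerian markers the level was 2612 to 2785 CPM in SKOV3 and 414 to 477 CPM in SKOV3/DDP, and most of it was KRT7 (2367 and 1.24 CPM). Without KRT7, taken out after its values were seen, the order of the sums turned, with 279.8 to 346 CPM in SKOV3 and 414 to 476 CPM in SKOV3/DDP. Most of the latter was MSLN (97.7 and 408 CPM), and FOLR1 was also higher in SKOV3/DDP (0.0771 and 37.8 CPM). WFDC2 (202 and 0 CPM), PAX8 (19.5 and 4.39 CPM) and MUC16 (1.37 and 0.404 CPM) were lower there. The remaining markers of this list averaged under 1 CPM in both untreated groups, though MEIS1 averaged 4.95 CPM in SKOV3_PAE. Summed over 20 intestinal epithelial markers the level was 4.33 to 6.83 CPM in SKOV3 and 1116 to 1223 CPM in SKOV3/DDP. None of the 41 genes is on either list, and the part of a change of cell type in their levels was not tested. In bulk RNA, fewer cells expressing a gene and less RNA per cell cannot be told apart.

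Together the 41 genes held 2258, 2022 and 2179 CPM in the 3 SKOV3/DDP libraries. Their means ran from 11.5 CPM to 306 CPM with a median of 32.5 CPM. 6 genes averaged 100 CPM or more and 11 averaged under 20 CPM. Per kilobase of exon length the median was 5.55 CPM, against 10.9 CPM for all 8739 protein-coding genes above the same limit, so these were mostly genes of low level even where they were on. The coefficient of variation between the 3 libraries had a median of 16.6%, against 14.8% for the 8739 genes.

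**Figure D1:**
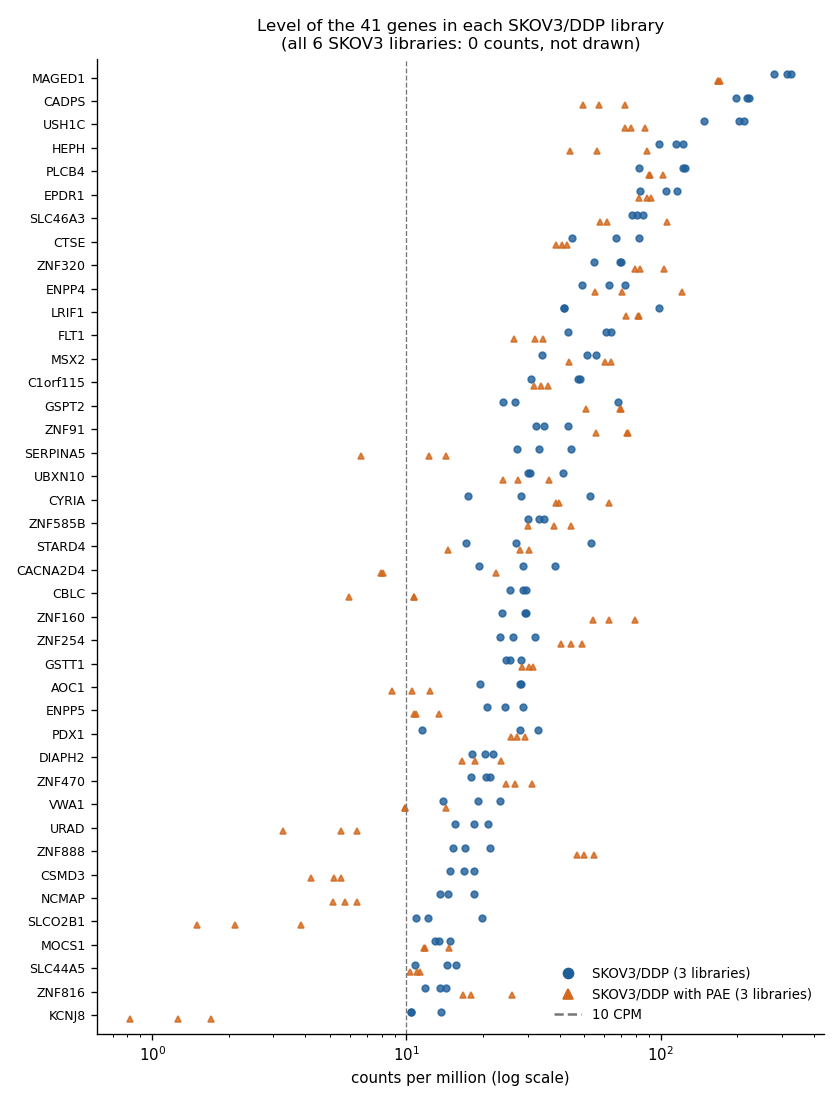
Level of each of the 41 genes in CPM (log axis) in the 3 SKOV3/DDP libraries (circles) and the 3 SKOV3/DDP_PAE libraries (triangles), ordered by the SKOV3/DDP mean. MAGED1 is at the top with a mean of 306 CPM and KCNJ8 at the bottom with 11.5 CPM, and the triangles of KCNJ8, SLCO2B1 and CADPS lie well to the left of their circles.

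Per kilobase, MAGED1 was the highest, at 79.7 CPM per kb. It encodes a MAGE-family protein that, unlike the testis-restricted members of that family, is made in many tissues. Its level was 324, 278 and 315 CPM in the 3 SKOV3/DDP libraries and 168, 169 and 171 CPM in the 3 with PAE. Every SKOV3/DDP library was above every PAE-treated one by more than 100 CPM.

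EPDR1, a secreted ependymin-related glycoprotein, followed at 38.2 CPM per kb, with 116, 83.2 and 105 CPM untreated and 81.9, 88.4 and 91.3 CPM with PAE. These 2 sets overlapped in CPM without TMM scaling, the scale of all levels given gene by gene here. CTSE, the aspartic protease cathepsin E of stomach and gut epithelium, had 66.7, 44.8 and 82.4 CPM and 38.7, 43.0 and 40.8 CPM. The lowest untreated CTSE library lay only just above the highest treated one. CADPS, which primes dense-core vesicles for calcium-triggered secretion, had 221, 197 and 217 CPM and 57.0, 49.5 and 72.5 CPM, so that each treated library was far below each untreated one. SLC46A3, a lysosomal transporter, had 85.4, 77.4 and 80.3 CPM and 57.9, 106 and 61.3 CPM, with overlap.

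GSTT1, a glutathione S-transferase of the theta class, had 25.5, 24.6 and 28.1 CPM untreated and 31.4, 30.3 and 28.6 CPM with PAE. The file places GSTT1 on an alternate scaffold and not on a chromosome. MSX2, a homeobox transcription factor, had 51.1, 34.2 and 55.5 CPM and 60.6, 63.7 and 43.7 CPM. The treated and untreated libraries overlapped for MSX2, and those of GSTT1 were parted by less than 1 CPM. USH1C encodes harmonin, a scaffold of the brush border and of sensory hair cells. It had 204, 147 and 212 CPM and, with PAE, 86.5, 72.5 and 76.2 CPM, with no overlap.

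URAD, an enzyme of uric acid breakdown, had 18.5, 15.5 and 20.8 CPM and 6.39, 5.52 and 3.28 CPM. SERPINA5, the secreted protein C inhibitor, had 33.1, 44.3 and 27.2 CPM and 12.3, 6.61 and 14.3 CPM. HEPH encodes hephaestin, the ferroxidase that helps iron leave enterocytes, and had 122, 114.6 and 98.1 CPM and 56.0, 43.8 and 88.1 CPM. For all 3 genes the treated libraries were lower than every untreated one. LRIF1, a nuclear protein of silenced chromatin, differed among its untreated libraries, with 41.8, 98.7 and 41.7 CPM, while the treated ones held 82.3, 81.7 and 72.9 CPM.

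The replicate that set LRIF1 apart, SKOV3/DDP replicate 2, also held the highest level of GSPT2, STARD4, CYRIA and SLCO2B1, in each case at over 1.5 times the next library (genes picked after their values were seen). GSPT2, an intronless close copy of the translation termination factor GSPT1, had 26.7, 68.0 and 24.0 CPM. How reads shared by close copies were counted is not stated, and sharing between these 2 genes was not tested. STARD4, a cholesterol carrier, had 26.9, 53.3 and 17.1 CPM, and CYRIA, a RAC1-binding regulator of actin, 28.3, 52.7 and 17.5 CPM. In the opposite direction PDX1, a homeobox factor of pancreas and duodenum, had 32.9, 11.6 and 28.1 CPM. Replicate 2 was the lowest of the 3 libraries for 27 of the 41 genes, against 61.4% of the 8739 genes.

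At the limit of the rule, the 3 members with the lowest single library were KCNJ8 at 10.4 CPM, SLC44A5 at 10.8 CPM and SLCO2B1 at 10.9 CPM. Just outside it, and also at 0 counts in all 6 SKOV3 libraries, were CCRL2 at 8.84 CPM, DPP4 at 8.51 CPM and CCDC187 at 8.48 CPM in their lowest library. A further 30 protein-coding genes above 10 CPM in SKOV3/DDP had only 1 to 3 counts over the 6 SKOV3 libraries, such as KLK6 (1 count, 183 CPM in SKOV3/DDP) and CDX2 (2 counts, 175 CPM).

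The promoters of 31 of the 41 genes were found in the RefSeq promoter table (GRCh38.p14, 250 bases before to 50 bases after the start of 1 RefSeq transcript). For 23 of them that start lay within 100 bases of the gene's outer end in the count files. For the other 8 it lay farther inside the gene, by 113 kb for SLC44A5, 53.8 kb for ZNF254, 27.6 kb for AOC1 and 10.03 kb for URAD, and by less for UBXN10, HEPH, KCNJ8 and CADPS. 5 of the 23 are shown because they span the CpG content of the set and its responses to PAE, with each CpG dinucleotide in capitals and read 5′ to 3′ on the gene's strand. They are MAGED1, the most abundant gene (chrX:51802826-51803125, plus strand, 10 CpG), CTSE (chr1:206023846-206024145, minus strand, 7 CpG), SLCO2B1, the poorest of the 23 in CpG for its base composition (chr11:75150857-75151156, plus strand, 2 CpG), VWA1, the richest (chr1:1435440-1435739, plus strand, 47 CpG), and ZNF160 (chr19:53103373-53103672, minus strand, 30 CpG).
MAGED1: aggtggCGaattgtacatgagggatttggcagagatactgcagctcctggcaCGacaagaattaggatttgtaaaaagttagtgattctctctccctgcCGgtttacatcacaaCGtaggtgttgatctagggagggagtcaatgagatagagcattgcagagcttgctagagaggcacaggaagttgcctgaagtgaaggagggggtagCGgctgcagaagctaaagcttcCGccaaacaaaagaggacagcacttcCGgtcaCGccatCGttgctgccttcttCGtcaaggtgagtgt
CTSE: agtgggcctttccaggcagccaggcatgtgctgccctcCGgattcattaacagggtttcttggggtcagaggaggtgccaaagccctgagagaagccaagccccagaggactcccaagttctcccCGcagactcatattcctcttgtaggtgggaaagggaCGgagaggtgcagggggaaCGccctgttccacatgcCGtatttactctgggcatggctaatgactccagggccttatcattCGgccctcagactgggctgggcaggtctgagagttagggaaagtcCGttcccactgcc
SLCO2B1: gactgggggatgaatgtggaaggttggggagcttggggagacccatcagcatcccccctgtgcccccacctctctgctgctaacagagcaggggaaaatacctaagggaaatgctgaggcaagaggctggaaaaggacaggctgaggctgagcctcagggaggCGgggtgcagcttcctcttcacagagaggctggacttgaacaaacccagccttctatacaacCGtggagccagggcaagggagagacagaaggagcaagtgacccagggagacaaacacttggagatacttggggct
VWA1: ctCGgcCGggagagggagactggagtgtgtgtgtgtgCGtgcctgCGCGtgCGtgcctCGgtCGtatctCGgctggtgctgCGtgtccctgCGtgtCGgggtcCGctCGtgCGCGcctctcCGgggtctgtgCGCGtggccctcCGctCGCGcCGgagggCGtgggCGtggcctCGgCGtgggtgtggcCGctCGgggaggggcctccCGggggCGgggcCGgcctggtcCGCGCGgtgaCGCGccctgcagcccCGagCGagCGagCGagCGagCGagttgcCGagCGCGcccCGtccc
ZNF160: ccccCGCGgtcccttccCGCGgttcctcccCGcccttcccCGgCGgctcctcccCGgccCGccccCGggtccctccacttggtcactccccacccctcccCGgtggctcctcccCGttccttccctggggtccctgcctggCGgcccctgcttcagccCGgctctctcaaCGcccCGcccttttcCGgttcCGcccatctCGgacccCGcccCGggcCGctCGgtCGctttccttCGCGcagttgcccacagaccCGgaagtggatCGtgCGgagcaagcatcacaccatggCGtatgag

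The ratio of observed to expected CpG ran from 0.0806 for SLC44A5 to 1.07 for VWA1, with a median of 0.688 over the 31 genes. It was under 0.6 for 11 of 31 (35.5%). Of the 7285 matched genes at 10 CPM or more in each SKOV3/DDP library 874 were under 0.6, with a median of 0.861. Of the 2399 matched genes with 0 counts in all 6 SKOV3 libraries 1788 (74.5%) were, with a median of 0.298. The 41 genes belong to both of these sets by rule, and their promoters lay between them. Over the 23 genes with a window at the listed gene end, a choice made after seeing the data, 7 (30.4%) were under 0.6 with a median of 0.692. The shares were 9.91% of 5629 genes and 75.1% of 1903 genes in the other 2 sets. The low group of 11 held SLC44A5, SLCO2B1, HEPH, AOC1, CTSE, SERPINA5, EPDR1, ZNF254, ZNF91, ENPP5 and MAGED1.

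**Figure D2:**
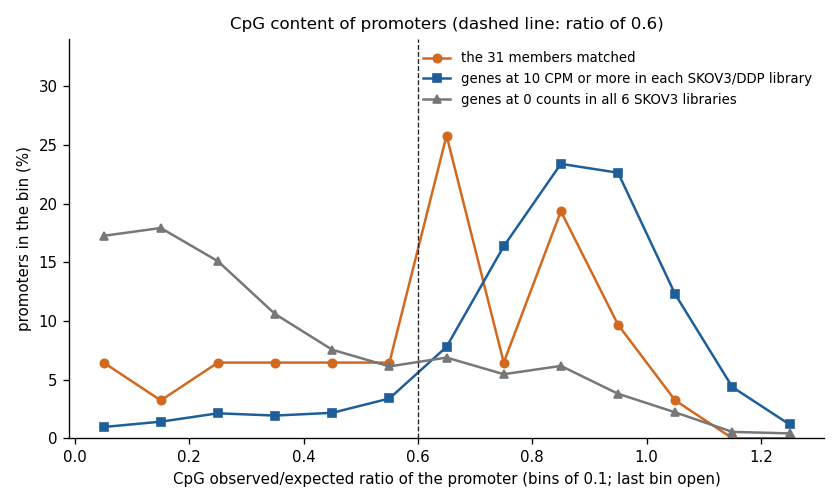
Share of promoters (%) by CpG observed/expected ratio in bins of 0.1, for the 31 matched genes, the 7285 genes at 10 CPM or more in each SKOV3/DDP library and the 2399 genes at 0 counts in all 6 SKOV3 libraries. Medians are 0.688, 0.861 and 0.298, and the dashed line marks 0.6. With 31 promoters, 1 gene is over 3% of its curve.

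Motifs were searched on both strands of the 300 bases. GTTAAT, part of the site of HNF1 factors, was in 4 of 31 promoters (12.9%: SLC44A5, CTSE, ZNF585B and MSX2, of which SLC44A5 has its window inside the gene), against 5.21% of all 15509 matched protein-coding promoters and 10.5% of those silent in SKOV3. CCAAT was in 14 (45.2%), against 36.5% of all. TATAAA was in 2, GGAATG in 3, AGATAA in 1 and TTTATTG in 1 of 31, against 9.59%, 11.7%, 7.499% and 2.79% of all promoters. TGANTCA and CAAAGTCCA were in none of the 31, against 5.74% and 0.316%. Letters in a window of this length are not a site of a factor, and with 31 promoters a single gene moves a share by more than 3 percentage points.

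By position, 9 of the 41 genes were on chromosome 19, which held 585 of the genes at 10 CPM or more in each SKOV3/DDP library (1.54%), and 4 each were on chromosome 13 (of 171, 2.34%) and chromosome X (of 256, 1.56%). Over all chromosomes the share was 0.469%. Chromosomes 4, 9, 10, 15, 16, 17, 18, 21 and 22 held none. Of the 9 genes on chromosome 19, 8 encode zinc finger proteins and the other is CBLC, an epithelial ubiquitin ligase.

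The 8 were ZNF91, ZNF160, ZNF254, ZNF320, ZNF470, ZNF585B, ZNF816 and ZNF888, and the files name a KRAB domain for 7 of them, all but ZNF254. Of 210 ZNF genes at 10 CPM or more in each SKOV3/DDP library, 3.81% were among the 41, and of the 81 on chromosome 19, 9.88%. By the same count 13.7% of all 518 ZNF genes and 16.6% of all 19729 protein-coding genes were at 0 in the 6 SKOV3 libraries. Among the 252 ZNF genes on chromosome 19 it was 18.7%. Of the 285 genes with a named KRAB domain, 57 were at 0. In both of these narrower groups the share was above that of all protein-coding genes. The 8 are members of a family of close copies, and how reads shared by copies were counted is not stated, so their single levels are uncertain.

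4 of them, ZNF320, ZNF888, ZNF816 and ZNF160, lay within 7 protein-coding genes on chromosome 19 (52859491 to 53103422 on GRCh38), all 7 at 0 counts in the 6 SKOV3 libraries. In SKOV3/DDP their means were 64.6, 17.8, 13.2 and 27.5 CPM, and the other 3 (ZNF816-ZNF321P, ERVV-1 and ERVV-2) stayed at 0. ZNF91 ended a run of 13 protein-coding genes at 0 in SKOV3, from ZNF43 on, of which only 2 averaged 1 CPM or more in SKOV3/DDP, ZNF91 at 36.7 CPM and ZNF724 at 3.44 CPM. The run ended there, as ZNF675, the next gene after ZNF91, had 103 counts in SKOV3 and 1996 in SKOV3_PAE.

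On chromosome X, GSPT2 and MAGED1 were neighbours 56.8 kb apart in another run of 13 genes at 0 in SKOV3, with CENPVL, MAGED4, XAGE and SSX genes around them. GSPT2 and MAGED1 were the only 2 of those 13 at 1 CPM or more in SKOV3/DDP. On chromosome 6 ENPP4 and ENPP5, 2 ectonucleotide phosphodiesterases 12.5 kb apart, had 72.1, 48.9 and 62.4 CPM and 28.8, 20.7 and 24.4 CPM. On chromosome 13 PDX1, URAD, FLT1 and SLC46A3 lay within 8 genes (27919982 to 28718970). Between them, CDX2, the master factor of intestinal epithelium, had 175 CPM in SKOV3/DDP and 2 counts in SKOV3_PAE, while PAN3 and POMP were counted in both lines.

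**Figure D3:**
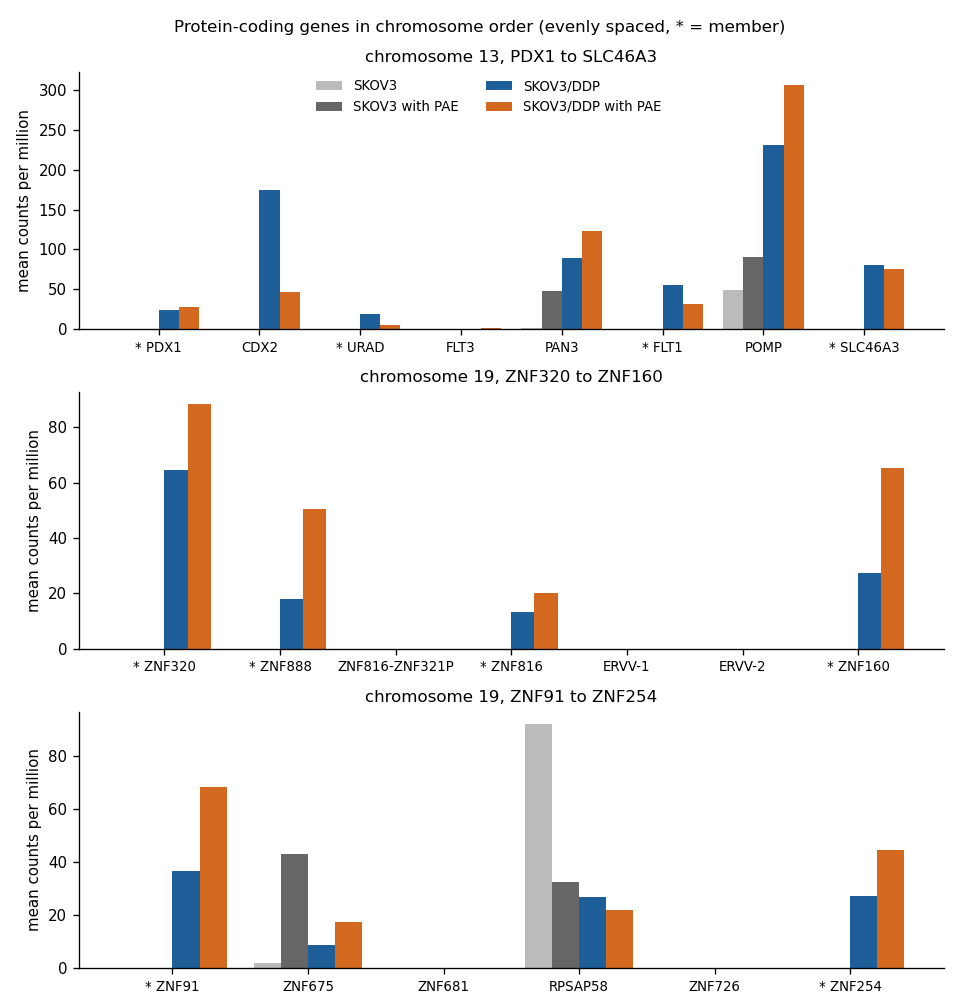
Mean CPM in the 4 groups for protein-coding genes in chromosome order in 3 stretches that hold several of the 41 genes (marked with *). In the stretch from ZNF320 to ZNF160 no gene has a bar in SKOV3, while from PDX1 to SLC46A3 the genes PAN3 and POMP are counted in SKOV3 and reach 89.1 and 232 CPM in SKOV3/DDP.

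Silent neighbours were about as common as around all protein-coding genes at 0 counts in SKOV3. Of the 40 genes placed on a chromosome, 10 (25.0%) had a protein-coding neighbour at 0 counts in the 6 SKOV3 libraries on both sides and 29 (72.5%) on at least one side. The shares were 0.940% and 13.1% among genes at 10 CPM or more in each SKOV3/DDP library, and 32.04% and 67.3% among all genes at 0 in SKOV3. With the nearest gene of any biotype, 21 of 40 (52.5%) had silent genes on both sides, against 5.89% and 51.2% in these 2 sets. With silence set at under 1 CPM it was 22 (55.0%), against 6.49% and 51.9%. Of the 32 silent neighbours that were not members themselves, 27 were under 1 CPM in SKOV3/DDP, and the highest was ZNF724 at 3.44 CPM.

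Some of the 41 overlap a gene on the other strand, and the strand of counting is not stated. LRIF1 overlaps CD53 (2 counts over the 6 SKOV3 libraries), MOCS1 overlaps DAAM2 (0 counts) and UBXN10 overlaps PLA2G2C (0 counts). STARD4 overlaps CAMK4, which had 1451 counts in the same libraries and 0.251 CPM in SKOV3/DDP. The highest of all overlapping genes in SKOV3/DDP was a long non-coding RNA within CACNA2D4, at 1.10 CPM.

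To see whether the genes were found again in libraries that the rule did not use, their level was read in the 3 SKOV3/DDP_PAE libraries. All 41 had counts in each of them, and together they held 1580, 1718 and 1808 CPM. 31 of 41 (75.6%) reached 10 CPM in each, against 94.5% of the 8739 genes. At 5 CPM these shares were 90.2% and 98.6%, and at 20 CPM 61.0% and 81.0%. KCNJ8, SLCO2B1, CSMD3, URAD and NCMAP averaged under 6 CPM with PAE. The difference of the PAE effect between the lines could not be tested, since the genes were at 0 in SKOV3 with and without PAE.

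PAE was tested within SKOV3/DDP by edgeR's quasi-likelihood test on all 12 libraries, with Benjamini-Hochberg adjustment over 17133 genes. Of the 41 genes 15 fell (36.6%), 3 rose (7.32%) and 23 did not pass an adjusted p of 0.05. Over all genes tested 14.7% were called lower and 11.8% higher, and over the 8739 genes with at least 10 CPM in each SKOV3/DDP library 17.2% and 12.6%. Called in either direction were 18 of the 41 (43.9%), 26.4% of all genes tested and 29.8% of the 8739. The median log2 fold change was -0.40 for the 41 genes, 0.00 over all genes tested and 0.01 over the 8739. The same 3 untreated libraries had to reach 10 CPM for a gene to be chosen, a limit that the 8739 genes share and the 17133 do not. In 28 of the 41 genes the 2 groups of TMM-normalized CPM did not overlap (21 lower, 7 higher with PAE). Over the 8739 genes the groups were apart in 51.7%, with 27.2% lower and 24.5% higher. Overlaps described gene by gene are in CPM without TMM scaling and can differ from this count. On the TMM scale EPDR1 was apart (85.5 to 105 CPM untreated, 68.5 to 79.6 CPM with PAE). GSTT1 overlapped on that scale (23.1 to 25.7 CPM untreated, 24.8 to 26.2 CPM with PAE).

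**Figure D4:**
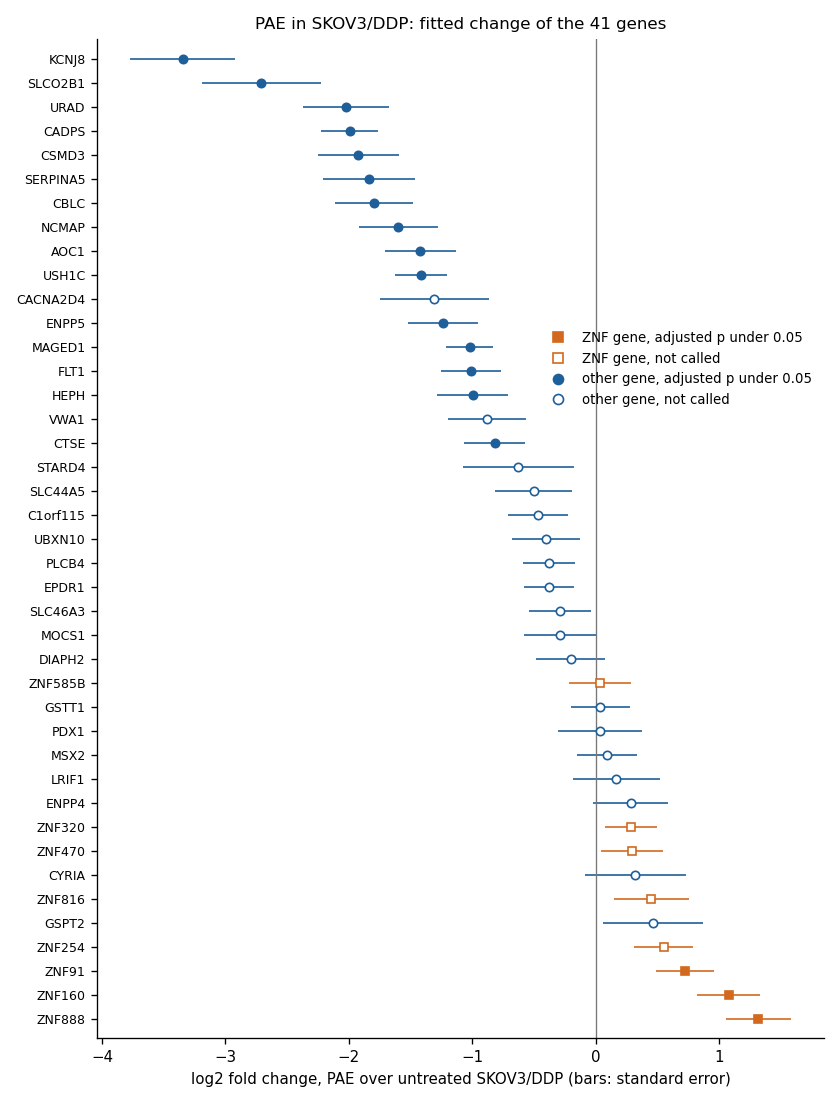
Fitted log2 fold change of each of the 41 genes for PAE in SKOV3/DDP, with its standard error (bars), filled where the adjusted p was under 0.05. The 8 ZNF genes (squares) lie at or to the right of 0, from 0.03 to 1.32 (ZNF585B, the lowest, was below 0 with the GC and length trend removed), and the 15 genes called lower lie between -3.35 and -0.82.

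The 3 genes that rose were all zinc finger genes. ZNF888 went from 15.2, 21.3 and 17.0 CPM to 54.7, 50.04 and 46.9 CPM, a log2 fold change of 1.32 (SE 0.26, edgeR adjusted p = 0.00496, higher in 3 of 3 treated libraries than in any untreated one). ZNF160 went from 29.5, 29.1 and 23.8 CPM to 62.4, 53.9 and 79.3 CPM (log2 fold change 1.08, SE 0.26, edgeR adjusted p = 0.0117). ZNF91 went from 34.7, 32.4 and 43.1 CPM to 55.8, 74.5 and 73.9 CPM (log2 fold change 0.72, SE 0.23, edgeR adjusted p = 0.0415), and its call was lost when the trend on GC content and length was removed (log2 fold change 0.42, edgeR adjusted p = 0.119), without the filter on low counts (0.0568) and without any 1 of the SKOV3/DDP libraries or of SKOV3/DDP_PAE replicates 2 and 3 (0.0692 to 0.127). In all 3 the treated and untreated libraries did not overlap.

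The other 5 ZNF genes did not pass this test. ZNF254 was called higher by limma-voom (adjusted p = 0.0292) and by edgeR on the 6 SKOV3/DDP libraries alone (adjusted p = 0.0416), which made 4 of 8. The log2 fold changes of the 5 were 0.55 for ZNF254, 0.45 for ZNF816, 0.29 for ZNF470, 0.28 for ZNF320 and 0.03 for ZNF585B. The median of the 8 was 0.50, and 0.23 with the GC and length trend removed, where ZNF585B turned negative. With that trend left in, the wider family had a like median. The 202 ZNF genes outside the 41 with at least 10 CPM in each SKOV3/DDP library had a median log2 fold change of 0.41. Of these 202, 54 were called higher (26.7%) and 11 lower (5.45%). Deviations from the mean over all 12 libraries, untreated SKOV3 included, correlated with GC content in both groups. Spearman values were -0.439 to -0.416 in SKOV3/DDP and -0.568 to -0.457 in SKOV3/DDP_PAE. GC content was 34.1% to 43.3% for the 8. Outside the ZNF genes, with all 12 libraries, none of the other 33 was called higher by edgeR, DESeq2 or limma-voom, and 0 were higher at an unadjusted p under 0.05. EdgeR called 15 of the 33 lower (45.5%). Over the 8739 genes at 10 CPM or more in each SKOV3/DDP library edgeR called 12.6% higher and 17.2% lower. Without SKOV3/DDP replicate 2, edgeR called 2 of the 33 higher, LRIF1 and GSPT2.

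KCNJ8, the Kir6.1 subunit of a potassium channel, fell the most, from 13.7, 10.4 and 10.4 CPM to 0.821, 1.27 and 1.7 CPM. Its log2 fold change was -3.35 (SE 0.42, edgeR adjusted p = 0.000424), a 10.2-fold lower level. SLCO2B1, an uptake transporter of organic anions, went from 12.2, 19.9 and 10.9 CPM to 2.11, 1.5 and 3.85 CPM (log2 fold change -2.71, SE 0.48, edgeR adjusted p = 0.00259). Both were chosen close to the limit of the rule, with a lowest untreated library at 10.4 and 10.9 CPM. The other 3 of these 5 transporters and channels did not pass. CACNA2D4, an auxiliary subunit of calcium channels, had a log2 fold change of -1.31 (edgeR adjusted p = 0.0509) and was called lower in 13 of 22 other settings, such as DESeq2 (adjusted p = 0.0198) and limma-voom (adjusted p = 0.00473). SLC44A5, a choline transporter-like protein, had a log2 fold change of -0.50 and SLC46A3 of -0.29.

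Among the genes of secretion and secreted proteins CADPS fell 3.98-fold (log2 fold change -1.99, SE 0.23, edgeR adjusted p = 0.000256) and SERPINA5 3.57-fold (-1.84, SE 0.37, edgeR adjusted p = 0.00519). EPDR1 (-0.38) and VWA1, a matrix protein (-0.88), did not pass, though VWA1 was called lower in 5 of 22 other settings, DESeq2 (adjusted p = 0.0267) and limma-voom (adjusted p = 0.00878) among them. CADPS was far above the limit of the rule in every untreated library.

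Of the 8 enzymes, a group formed after the values were seen, 5 fell, where 14.7% of all genes tested and 17.2% of the 8739 were called lower. URAD fell 4.06-fold (log2 fold change -2.02, SE 0.35, edgeR adjusted p = 0.00215). AOC1, the gut diamine oxidase that degrades histamine, went from 27.9, 19.5 and 28.3 CPM to 10.6, 12.4 and 8.77 CPM (-1.42, edgeR adjusted p = 0.00526). ENPP5 (-1.24), HEPH (-0.998) and CTSE (-0.82) were also lower, with edgeR adjusted p of 0.00969, 0.0261 and 0.0301. CTSE was the least firm of these, since scaling by library size alone ended its call (log2 fold change -0.66, edgeR adjusted p = 0.0792), as did leaving out any 1 of SKOV3/DDP replicates 1 and 3 or of the 3 SKOV3/DDP_PAE libraries, with adjusted p between 0.0711 and 0.165. The other 3 enzymes did not pass. ENPP4, the neighbour of ENPP5, had a log2 fold change of 0.28, GSTT1 of 0.03 and MOCS1, which acts in molybdenum cofactor synthesis, of -0.29.

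In the receptor, signalling and cytoskeleton group, also formed afterwards, 3 of 6 fell, against the same 14.7% and 17.2%. CBLC went from 25.6, 28.7 and 29.5 CPM to 10.7, 10.8 and 5.93 CPM (log2 fold change -1.79, SE 0.32, edgeR adjusted p = 0.00251). USH1C fell 2.68-fold (-1.42, SE 0.21, edgeR adjusted p = 0.000957), and FLT1, the VEGF receptor 1, went from 63.6, 43.3 and 60.8 CPM to 26.4, 32.04 and 34.3 CPM (-1.01, SE 0.24, edgeR adjusted p = 0.0112). PLCB4, a phospholipase C, had a log2 fold change of -0.38, the formin DIAPH2 of -0.20 and CYRIA of 0.32, none of which passed, though PLCB4 was called lower with the GC and length trend removed. Left without SKOV3/DDP replicate 1 or 3 or SKOV3/DDP_PAE replicate 1, the adjusted p of FLT1 was 0.0591, 0.0526 and 0.0591.

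MAGED1 fell 2.03-fold (log2 fold change -1.02, SE 0.19, edgeR adjusted p = 0.00357). CSMD3, a large membrane protein with CUB and sushi domains, went from 14.9, 18.4 and 16.8 CPM to 4.22, 5.52 and 5.17 CPM (-1.93, SE 0.33, edgeR adjusted p = 0.0021), and NCMAP, a protein of non-compact myelin, from 18.5, 13.6 and 14.6 CPM to 5.16, 6.38 and 5.74 CPM (-1.60, edgeR adjusted p = 0.00471). GSPT2, the neighbour of MAGED1, had a log2 fold change of 0.46 that did not pass, and neither did STARD4 (-0.63), C1orf115 (-0.47) or the cilium-associated UBXN10 (-0.40).

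The nuclear proteins outside the ZNF family did not pass. PDX1 had a log2 fold change of 0.04, MSX2 of 0.09 and LRIF1 of 0.17. For LRIF1 and GSPT2 the value rested on SKOV3/DDP replicate 2. Without it LRIF1 had a log2 fold change of 0.80 (SE 0.25, edgeR adjusted p = 0.0372) and GSPT2 of 1.20 (SE 0.29, edgeR adjusted p = 0.0128). PDX1 moved from 0.04 to -0.27 without the same library and did not pass there either.

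**Figure D5:**
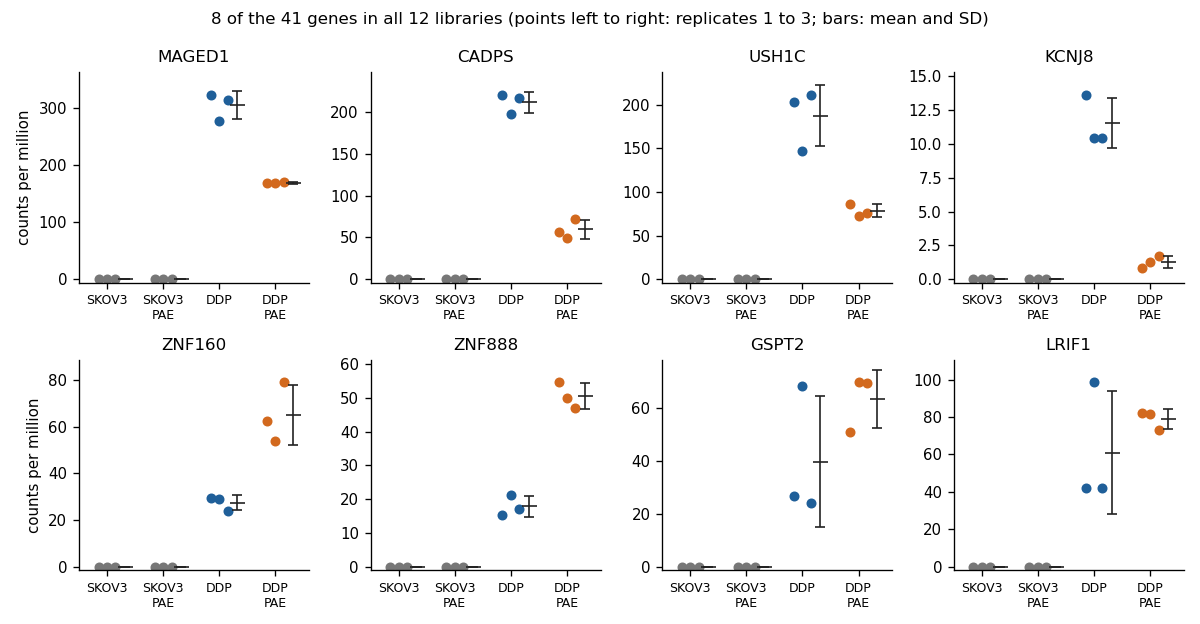
CPM in all 12 libraries for 8 of the 41 genes (DDP stands for SKOV3/DDP), with points for replicates 1 to 3 and bars for mean and SD. All 8 are at 0 in the 6 SKOV3 libraries. MAGED1, CADPS, USH1C and KCNJ8 are lower and ZNF160 and ZNF888 higher with PAE without overlap, while replicate 2 of SKOV3/DDP stands at 68.0 CPM for GSPT2 and 98.7 CPM for LRIF1.

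Of the 20 intestinal markers, 11 were tested for PAE in SKOV3/DDP, and 7 of them fell, where 14.7% of all genes tested were called lower, with a median log2 fold change of -1.36. None was called higher by edgeR, DESeq2 or limma-voom, and 0 were higher at an unadjusted p under 0.05. CDX2 fell (-2.07, edgeR adjusted p = 0.000256), as did VIL1 (-2.92) and CDX1 (-2.67). 3 of the 20 (TFF3, PHGR1 and FABP1) were at 0 counts in untreated SKOV3/DDP. Of the 11 ovarian and Mullerian markers 7 were tested and edgeR called 0 of them, with a median of -0.39. WFDC2 and MEIS1 were at 0 in every SKOV3/DDP and SKOV3/DDP_PAE library, so they could not be called and entered the median as 0. KRT7 (-0.99), FOLR1 (-0.79), PAX8 (-0.75) and MSLN (-0.39) were negative and MUC16 (0.21) was positive. FOLR1 alone was lower at an unadjusted p under 0.05, and DESeq2 and limma-voom called the same 1 gene. Whether the fall of the 15 genes is part of the fall of intestinal genes was not tested.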

How the data were processed

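The values are raw read counts of genes in 12 libraries, as the authors deposited them, with NCBI Gene IDs and positions on GRCh38. Poly-A RNA had been made into libraries with the NEBNext Ultra kit. The submitters' processing notes name HISAT2 2.0.5 and StringTie 1.3.3b. How reads were assigned to genes, with which gene models and on which strand, is not given in the sources used here. Of 47219 loci, 869 without a gene name (0.126% to 0.678% of a library's counts) were left out. Levels are CPM of named genes. The libraries differed by more than counting noise (chi-square per gene 16.6 to 101 between replicates), so each was used as 1 sample. Intervals and limits on counts cover counting error only.

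PAE was tested in R 4.3.3 with edgeR 4.0.16 on all 12 libraries in 4 groups, after filterByExpr and TMM, and its fold changes are on the TMM scale. Standard errors are the size of the log2 fold change over the square root of F. On simulated data for this comparison (17133 genes), 21.1% of genes changed by 1 on the log2 scale, 90.7% of those changed by 2 and 96.3% of those changed by 3 were recovered, and 0.0613% of unchanged genes were called. Far fewer genes were changed in the simulation than were called in the data (26.4%). The adjusted p threshold depends on that share, so these rates need not hold for the data. An exact permutation test of 3 against 3 libraries cannot go below p = 0.1 and was not used. Alternatives used DESeq2 1.42.0, limma 3.58.1 (voom), other filters and scalings, a GC and length trend (GENCODE 29) and each library left out. Tables were joined in Python 3.11.15 with pandas 2.3.3.

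The 41 genes, the marker lists and the tests were chosen with earlier results of these data known. The rule for naming genes took the 12 with the highest CPM per kilobase, the 5 of each sign with the largest called PAE change, genes on a marker list or in listed factor families, neighbouring members and those at the limit. All others were named after their values were seen, and so were the role groups. Promoters came from RefSeq (GRCh38.p14).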

Additional observations from a re-analysis of the deposited data

How the results depend on the processing

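The 18 genes called for PAE kept their direction in all 396 other values (the other settings, and each of the 12 libraries left out), and 24 of these were no longer past the threshold, all in ENPP5, FLT1, HEPH, CTSE, ZNF91 and ZNF160. Between 11 and 17 of the 41 genes were called lower and between 1 and 4 higher when 1 library was left out (1 higher without SKOV3/DDP replicate 3), and the count over all genes ranged from 2815 to 4998 around 4526, with 2815 and 2837 without SKOV3/DDP replicates 1 and 3. HEPH lost its call without SKOV3/DDP replicate 1 or 2 or SKOV3/DDP_PAE replicate 1 or 2 (edgeR adjusted p 0.0617 to 0.102), ENPP5 without SKOV3/DDP replicate 1 (0.0548), and ZNF160 without SKOV3/DDP replicate 3 (0.0508). The causes were not tested. The median of the 41 genes lay between -0.45 and -0.32 over the libraries left out, at -0.22 with scaling by library size only and at -0.52 with the GC and length trend removed. Scaling by library size moved the median of all genes by 0.16 on the log2 scale and their calls from 2014 higher and 2512 lower to 2889 higher and 1913 lower, while the 41 genes had 3 higher and 14 lower. An unadjusted p under 0.05 with an absolute log2 fold change over 2 gave 3 lower, 0 higher and 1218 over all genes.

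The number of genes meeting the rule was 24 at 20 CPM, 71 with up to 3 counts allowed over the SKOV3 libraries, 84 with 0 counts asked of the untreated SKOV3 libraries only, and 41 to 52 with 1 library left out. With neighbours of any biotype 21 genes had silent genes on both sides, and 22 with silence set at under 1 CPM, where the shares of other genes silent in SKOV3 were 51.2% and 51.9%. With a CpG ratio limit of 0.75, 20 promoters were low, and 7 of 23 with windows at the listed gene end only, added after seeing the data.

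The replicate numbers were not shown to pair the libraries, as deviations of same-numbered SKOV3/DDP and SKOV3/DDP_PAE libraries correlated at -0.164, 0.0143 and -0.239. With the replicate block 15 of the 41 genes were lower, 2 higher and 3997 of all genes called, with a median of -0.39, the calls of CTSE and ZNF91 were lost and CACNA2D4 was called lower. The block in a fit of the 6 SKOV3/DDP libraries alone, added after seeing the data, gave 17 lower, 3 higher and 3979.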
